A study of Rattus with 6 samples.

Results

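Homologous recombination and the DNA damage response were followed through 33 named genes in cultured rat bone marrow mesenchymal stem cells. These are plastic-adherent stromal cells that can form bone and fat. The genes were taken by symbol from the table of 16690 genes that the authors deposited, and all 33 were found there. They fall into 8 role groups, made here by function: the BRCA1 complex with BRCA2, the strand exchange factors, the Fanconi core complex with its anchor, the Fanconi ID2 complex, the MRN complex with resection and dissolution, the checkpoint kinases with their mediators, the choice of end joining with the Ku proteins, and mismatch recognition.

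The CKD group held 3 libraries of cells from Sprague Dawley rats in which chronic kidney disease was modelled, and the control group held 3 libraries of cells from healthy Sprague Dawley rats. All 6 libraries carried a wild-type genotype label. How the disease was induced, the sex and age of the animals and any treatment of the cells are not given in the labels used here. RNA was read by poly-A selected, stranded sequencing, and the level of a gene is given as FPKM, the number of fragments scaled by the length of the gene and the depth of the library, which can be compared between genes. The libraries held between 34404037 and 46892613 fragments in the table.

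Several labels limit what the 2 groups stand for. The group was taken from the titles and column codes. The disease model tag of CKD replicate 1 names it a control, and that of control replicate 2 names it CKD. Library names share a start between CKD replicates 1 and 3, and between control replicates 1 and 2, and the labels do not say whether such libraries came from the same animal, so p-values may measure in part the spread between samples of 1 source. The library name of control replicate 3 starts unlike those of the other control libraries. The extraction text speaks of exosomes while the design text speaks of cells, and which RNA was sequenced cannot be told from these texts.

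The first replicates stood apart from the other libraries of their groups. Log2 levels were compared over the 10638 genes that reached 1 FPKM in 3 or more libraries. CKD replicate 1 correlated at 0.967 with control replicate 1, against 0.935 with CKD replicate 2 and 0.944 with CKD replicate 3. CKD replicates 2 and 3 correlated at 0.996 and control replicates 2 and 3 at 0.998. A list of 20 haematopoietic and macrophage markers summed to 314, 3560 and 2400 FPKM in CKD replicates 1, 2 and 3, against 436, 23.4 and 14.9 FPKM in control replicates 1, 2 and 3. Ptprc, the leukocyte antigen CD45 for which the labels call the cells negative, had 0.783, 15.5 and 11.4 FPKM in CKD libraries, against 1.33, 0.0140 and 0.0204 FPKM in control libraries. The mesenchymal markers Itgb1 (CD29) and Thy1 (CD90), for which the labels call the cells positive, were at 847 to 1100 FPKM and 505 to 572 FPKM in CKD libraries, against 985 to 1200 FPKM and 590 to 801 FPKM in control libraries. They do not stand for all 13 listed mesenchymal markers, whose ratios of mean FPKM, CKD over control, ran from 0.288 for Eng to 2.07 for Nt5e. All CKD libraries lay above all control libraries in 2 of the 13 and below them in 1. The shares over all genes in the table were 16.9% and 8.59%. Because these are bulk libraries, fewer cells of a type and less RNA per cell cannot be told apart in any value given here.

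Homologous recombination mends a broken DNA duplex by copying the intact sister chromatid, and is used mainly after replication. The MRN complex finds the break, nucleases cut back the ends, BRCA1 with BARD1 and PALB2 brings in BRCA2, and strand exchange with the sister follows. The Fanconi proteins act where DNA strands are crosslinked: a core complex marks the FANCD2 and FANCI pair with ubiquitin and so calls in repair factors. The kinases ATM and ATR, with CHK2 and CHK1 after them, hold the cell cycle while damage or stalled forks are dealt with, and the Ku proteins start the alternative route of joining the ends directly. In cultured stromal cells many of these genes are transcribed mostly in cycling cells, while the break sensors and Ku are present in resting cells too.

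Mean FPKM was higher in CKD than in control for 31 of the 33 genes and lower for 2, Tp53bp1 and Xrcc6, and it was higher for 59.1% of all genes in the table. All 3 CKD libraries lay above all 3 control libraries for 23 of the 33 genes (69.7%), against 16.9% of all genes in the table. The reverse order was seen for 0 of the 33 genes, against 8.59% of all genes. In the other 10 genes the groups overlapped. The size of the difference varied widely: 15 genes had a ratio of mean FPKM, CKD over control, of at least 2, as had 14.9% of all genes, and 10 had a ratio between 0.8 and 1.25. None of the 15 exceeded 1.47 FPKM in a control library or 2.95 FPKM in a CKD library, so the large ratios belonged to genes at low levels.

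**Figure D1:**
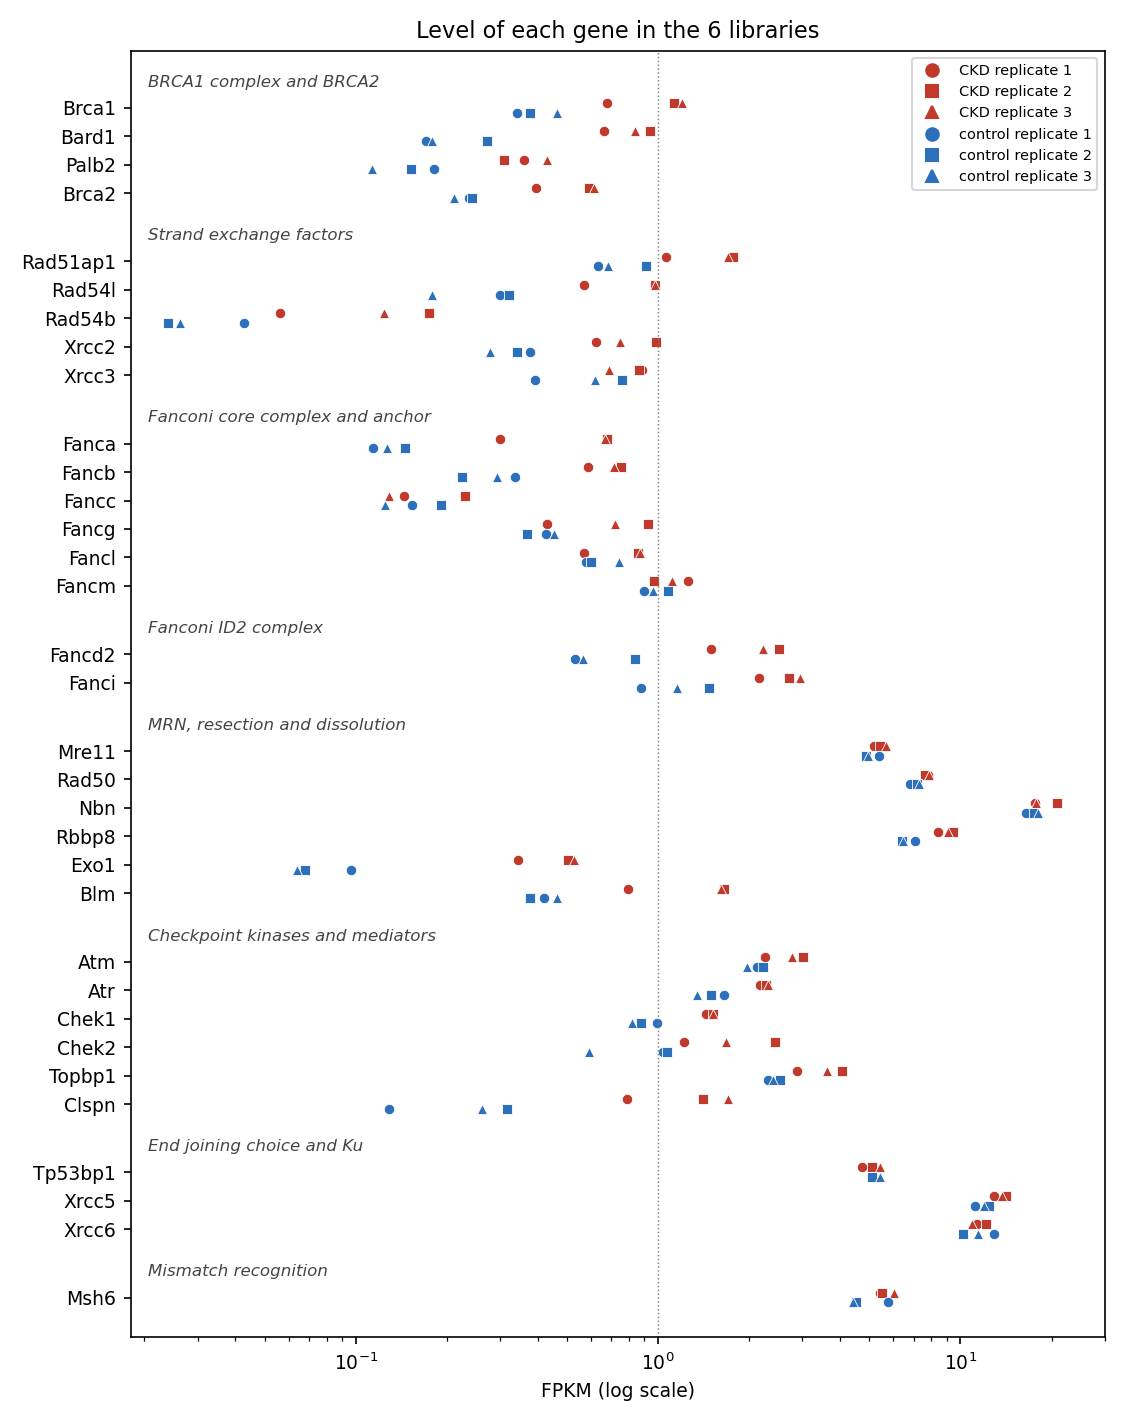
FPKM (log scale) of each of the 33 genes in the 3 CKD and 3 control libraries, grouped by role; each point is 1 library and the dotted line marks 1 FPKM. CKD points lie to the right of all control points in 23 genes, and the genes at the highest levels, such as Nbn, Xrcc5 and Xrcc6, show little or no gap between the groups.

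Two-sided limma tests on log2(FPKM + 1), adjusted by Benjamini-Hochberg over the 10638 genes that reached 1 FPKM in 3 or more libraries, called 0 of the 17 genes that passed this filter, against 1.33% of all tested genes called higher and 0.733% called lower. At an unadjusted p under 0.05, 8 of the 17 were higher in CKD (47.1%) and 0 lower, against 14.6% of all tested genes higher. The lowest adjusted p-values were 0.0564 for Fancd2, 0.0687 for Fanci, 0.0718 for Rbbp8, 0.0747 for Chek1 and 0.0842 for Atr. The other 16 genes lay below the filter, and 3 of the 17 tested, Rad51ap1, Fancd2 and Chek1, had no control library at 1 FPKM and passed through the CKD libraries alone, so counts over the 17 do not stand for all 33.

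Without the filter the same limma fit called 2 of the 33 genes higher, Bard1 and Exo1, against 0.485% of all 16690 genes, and 21 of the 33 were higher at an unadjusted p under 0.05, against 12.9% of all genes. Both calls were lost when any single library among CKD replicates 2 and 3 and control replicates 2 and 3 was left out. A limma-voom fit on the fragment counts behind the FPKM values covered all 33 genes at a mean count of at least 10. It called 0 of the 33, against 0.107% of 14050 genes called higher, with a lowest adjusted p of 0.0610, for Bard1. At an unadjusted p under 0.05 it had 21 of the 33 higher and 0 lower, against 13.0% of the 14050 genes higher. In that fit the median log2 difference over the 33 genes was 0.73, with a range of -0.031 to 2.54, against a median of 0.083 over all 14050 genes. The 95% intervals of these 21 genes lay wholly above 0. In the authors' deposited table, 18 of the 33 genes had a q-value under 0.05 and were higher in CKD (54.5%), against 6.72% of all genes, and 0 were lower, against 4.60%.

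**Figure D2:**
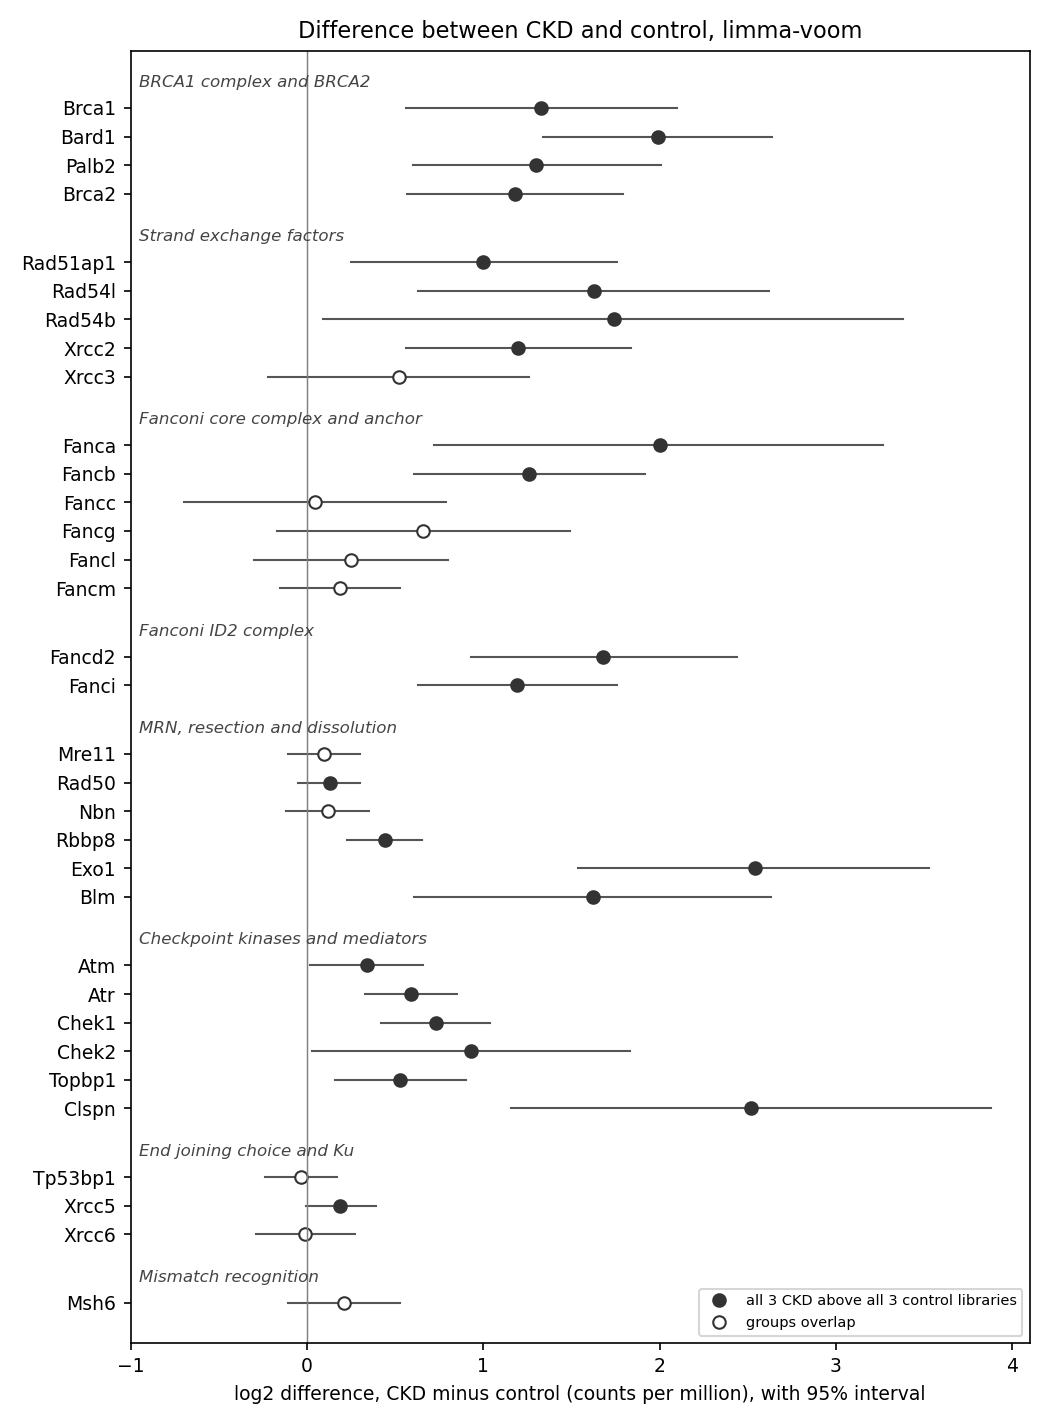
Log2 difference in CPM (counts scaled to library size), CKD minus control, from the limma-voom fit for each of the 33 genes, with its 95% interval as a line; filled points mark genes whose 3 CKD libraries all lie above the 3 control libraries. Intervals exclude 0 in 21 genes, and Exo1 at 2.54 and Clspn at 2.52 lie farthest to the right.

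The outcome depended on the first replicates. Leaving out CKD replicate 1, the limma fit with the filter called 7 of the 17 genes higher (41.2%), against 10.7% of all tested genes. Without control replicate 1 it called 4 of the 17 (23.5%), against 6.89% of all tested genes. Without both first replicates it called 11 of the 17 (64.7%), against 34.7% of all tested genes, with 2 libraries left in each group. Rad51ap1, Fancd2 and Chek1, which passed the filter through the CKD libraries alone, were among the 7 and the 11, and Chek1 was among the 4. These counts thus depend in part on the filter. With no filter, the fit called 19 of the 33 (57.6%) without CKD replicate 1, against 11.6% of all genes, and 24 of the 33 (72.7%) without both first replicates, against 26.9% of all genes. Without the 2 libraries whose tags conflict with their titles, the fit with the filter called Fancd2 alone among the 17, against 2.23% of all tested genes.

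CKD replicate 1 was the lowest of the 3 CKD libraries in 27 of the 33 genes, which was the case for 51.4% of genes in the table. It still lay above every control library in 25 of the 33, against 30.6% of genes in the table. Setting the first replicates side by side, CKD replicate 1 exceeded control replicate 1 in 27 of the 33 genes, with a median log2 ratio of 0.49, where 50.9% of genes in the table did so and the median was 0.016. Over the other libraries, the median log2 ratio of CKD replicates 2 and 3 to control replicates 2 and 3 was 1.00 for the 33 genes and 0.11 for the table, and the ratio was larger there than in the first replicates in 27 of the 33 genes, against 57.0% of the 14875 genes with a value above 0 in every library.

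**Figure D3:**
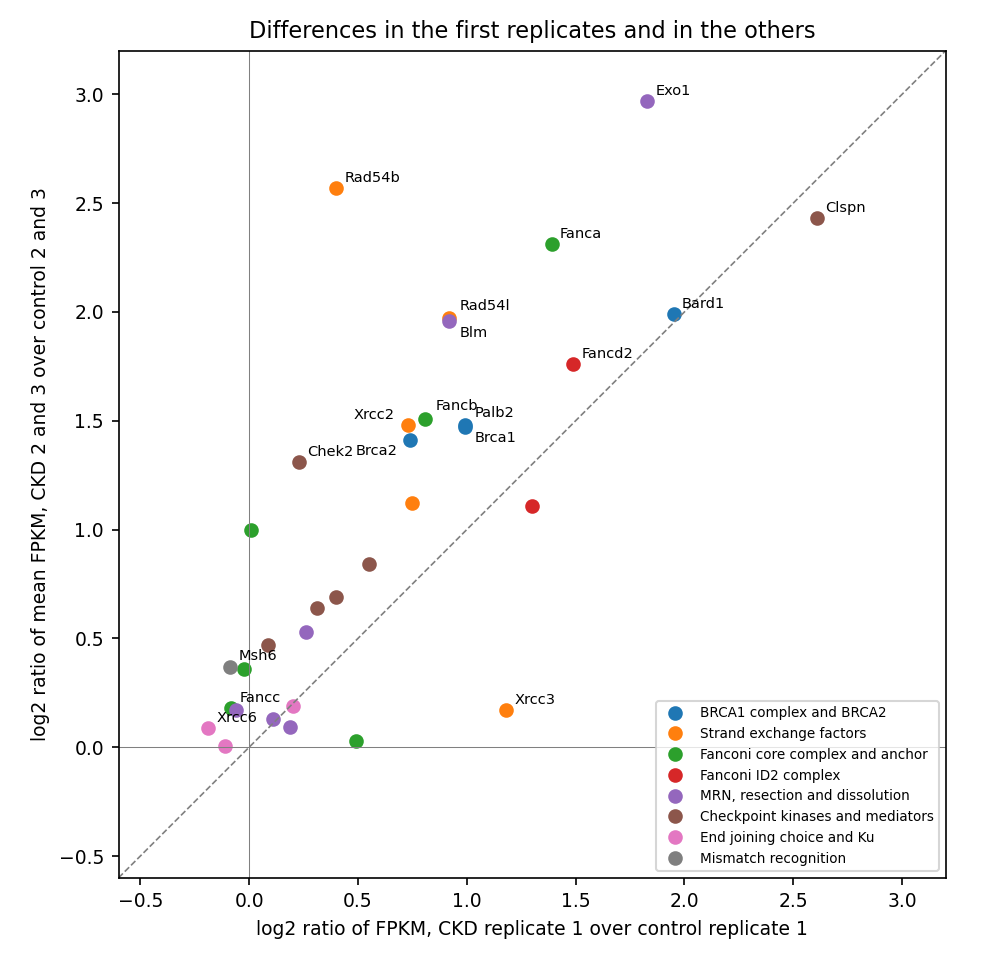
Log2 ratio of FPKM, CKD replicate 1 over control replicate 1 (horizontal), against the log2 ratio of mean FPKM of CKD replicates 2 and 3 over control replicates 2 and 3 (vertical), for the 33 genes coloured by role; the dashed line marks equal ratios. In 27 genes the point lies above the dashed line, and Clspn, Fanci and Xrcc3 are among those below it.

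In all 4 genes of the BRCA1 complex and BRCA2 every CKD library lay above every control library, against 16.9% of all genes in the table. All 4 lay below the filter, and 1 of them, Bard1, was called in the unfiltered limma fit and none in voom. Brca1, a ubiquitin ligase and scaffold of break repair, had 0.675, 1.13 and 1.20 FPKM in CKD libraries, against 0.341, 0.376 and 0.464 FPKM in control libraries. Bard1, its obligate partner, had 0.663, 0.941 and 0.838 FPKM in CKD libraries, against 0.171, 0.271 and 0.178 FPKM in control libraries. The smallest Bard1 value in CKD was thus above the largest in control by a wider margin than for Brca1. Bard1 rose in the unfiltered limma fit (log2 difference 0.59 ± 0.073 (SE), adjusted p = 0.0473), where Brca1 had a log2 difference of 0.51 ± 0.12 and an adjusted p of 0.120.

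Palb2, the bridge between BRCA1 and BRCA2, had 0.360, 0.310 and 0.430 FPKM in CKD libraries, against 0.181, 0.152 and 0.113 FPKM in control libraries. Brca2, which prepares resected DNA for strand exchange, had 0.395, 0.589 and 0.613 FPKM in CKD libraries, against 0.236, 0.243 and 0.211 FPKM in control libraries. Neither passed in the unfiltered limma fit, with an adjusted p of 0.0782 for Palb2 and a higher one for Brca2, or in voom, with 0.106 for Palb2 and 0.0985 for Brca2. Palb2 was the only gene of the 4 in which CKD replicate 1 was not the lowest CKD library. The 4 genes together summed to 2.09, 2.97 and 3.08 FPKM in CKD libraries, against 0.929, 1.04 and 0.966 FPKM in control libraries. These are low levels, resting on 28 to 375 fragments per gene and library.

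Among the strand exchange factors, 4 of 5 genes had all CKD libraries above all control libraries, against 16.9% of all genes in the table. Rad51ap1, which helps to form joints between duplexes, was the most abundant, with 1.06, 1.77 and 1.70 FPKM in CKD libraries, against 0.631, 0.914 and 0.685 FPKM in control libraries (limma log2 difference 0.52 ± 0.15, adjusted p = 0.132). Rad54l, a motor protein of strand exchange, had 0.569, 0.976 and 0.979 FPKM in CKD libraries, against 0.300, 0.320 and 0.179 FPKM in control libraries. Xrcc2, which assists strand exchange, had 0.624, 0.982 and 0.746 FPKM in CKD libraries, against 0.378, 0.341 and 0.277 FPKM in control libraries. In each of these 3 genes CKD replicate 1 was the lowest CKD library and lay above all controls.

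Rad54b, a relative of Rad54l, was the least abundant of the 33 genes, with 0.0562, 0.175 and 0.124 FPKM in CKD libraries, against 0.0427, 0.0240 and 0.0262 FPKM in control libraries. Its values rested on 13, 36 and 32 fragments in CKD libraries and on 12, 6 and 6 fragments in control libraries, and its voom interval was the widest of all, from 0.093 to 3.38. Xrcc3, which acts beside Xrcc2 in recombination, was the exception of the group, with 0.885, 0.864 and 0.690 FPKM in CKD libraries, against 0.391, 0.758 and 0.619 FPKM in control libraries. Its groups overlapped. Control replicate 1 was the lowest library, and the log2 ratio was 1.18 in the first replicates and 0.17 in the others.

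Members of the Fanconi core complex did not move as a block. Fanca and Fancb, 2 of the 6, had all CKD libraries above all control libraries, against 16.9% of all genes in the table. In the other 4 genes the groups overlapped. Fanca, a large scaffold subunit, had 0.300, 0.679 and 0.667 FPKM in CKD libraries, against 0.114, 0.145 and 0.127 FPKM in control libraries, a ratio of means of 4.27. Fancb, a subunit of the catalytic module, had 0.588, 0.756 and 0.716 FPKM in CKD libraries, against 0.335, 0.224 and 0.292 FPKM in control libraries. Neither passed the adjusted threshold, with adjusted p-values of 0.130 for Fanca and 0.0625 for Fancb in the unfiltered limma fit.

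Fancc, the partner of a separate subcomplex, had 0.144, 0.229 and 0.129 FPKM in CKD libraries, against 0.153, 0.191 and 0.125 FPKM in control libraries, and its voom interval ran from -0.70 to 0.79. The ratio of Fanca to Fancc within a library, looked at after the values were seen, was 2.08, 2.96 and 5.15 in CKD libraries, against 0.748, 0.760 and 1.01 in control libraries. Fancg, which binds Fanca, had 0.430, 0.929 and 0.719 FPKM in CKD libraries, against 0.427, 0.368 and 0.454 FPKM in control libraries. In Fancg CKD replicate 1 was level with control replicate 1 and below control replicate 3, and CKD replicates 2 and 3 lay above every control library. Fancl, the ubiquitin ligase of the complex, had 0.570, 0.857 and 0.869 FPKM in CKD libraries, against 0.579, 0.598 and 0.745 FPKM in control libraries. Fancm, the translocase that anchors the complex to DNA, was the most abundant of the 6, with 1.26, 0.966 and 1.11 FPKM in CKD libraries, against 0.899, 1.08 and 0.963 FPKM in control libraries (limma log2 difference 0.094 ± 0.094, adjusted p = 0.593).

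The ID2 complex, the substrate that the core complex marks, held the genes nearest to the threshold among the 17 tested. Fancd2 had 1.49, 2.51 and 2.23 FPKM in CKD libraries, against 0.530, 0.836 and 0.564 FPKM in control libraries (limma log2 difference 0.90 ± 0.16, adjusted p = 0.0564). Fanci had 2.16, 2.70 and 2.95 FPKM in CKD libraries, against 0.879, 1.47 and 1.15 FPKM in control libraries (limma log2 difference 0.74 ± 0.14, adjusted p = 0.0687). In both genes the lowest CKD library lay above the highest control library, against 16.9% of all genes in the table. The ratio of Fancd2 to Fanci within a library was 0.692, 0.929 and 0.756 in CKD libraries, against 0.603, 0.567 and 0.492 in control libraries, so Fancd2 was nearer to the level of its partner in CKD. Fancd2, which had no control library at 1 FPKM, was called under upper quartile scaling (adjusted p = 0.0473). It was not called under size factor scaling (0.0520), without the filter (0.0734) or in voom (0.0794).

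The MRN complex differed little between the groups. Mre11, its nuclease, had 5.17, 5.40 and 5.65 FPKM in CKD libraries, against 5.39, 4.87 and 4.94 FPKM in control libraries. Rad50, which tethers the ends, had 7.79, 7.61 and 7.84 FPKM in CKD libraries, against 6.83, 7.20 and 7.29 FPKM in control libraries. Nbn, the adaptor that calls in ATM and the most abundant of the 33 genes, had 17.7, 20.9 and 17.8 FPKM in CKD libraries, against 16.5, 17.5 and 18.0 FPKM in control libraries. The limma log2 differences were 0.079, 0.11 and 0.11 for Mre11, Rad50 and Nbn, with 95% intervals reaching at most 0.33 in the upward direction. Groups did not overlap in Rad50, where each group spread over a narrow range.

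Resection and dissolution enzymes showed larger differences. Rbbp8, the CtIP protein that starts resection together with MRN, had 8.45, 9.46 and 9.12 FPKM in CKD libraries, against 7.06, 6.42 and 6.43 FPKM in control libraries (limma log2 difference 0.39 ± 0.077, adjusted p = 0.0718). Exo1, the exonuclease that extends resection, had 0.343, 0.505 and 0.526 FPKM in CKD libraries, against 0.0967, 0.0679 and 0.0641 FPKM in control libraries. With a ratio of means of 6.01, Exo1 had the largest ratio of the 33 genes, and it rose in the unfiltered limma fit (log2 difference 0.44 ± 0.057, adjusted p = 0.0482). That log2 value understates the ratio because 1 is added to low FPKM values, and the voom log2 difference was 2.54 ± 0.40 (adjusted p = 0.0697), on 13 to 24 fragments per control library. Blm, the helicase that dissolves joined duplexes, had 0.793, 1.65 and 1.62 FPKM in CKD libraries, against 0.419, 0.376 and 0.464 FPKM in control libraries. Relative to Mre11 in the same library, Exo1 stood at 0.0663, 0.0935 and 0.0932 in CKD libraries, against 0.0179, 0.0139 and 0.0130 in control libraries.

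In the checkpoint group all 6 genes had CKD libraries above control libraries, against 16.9% of all genes in the table. All 6 had voom intervals above 0, against 13.0% of the 14050 genes in that fit, and none passed the adjusted threshold. Atr, the kinase of stalled forks, had 2.18, 2.28 and 2.30 FPKM in CKD libraries, against 1.65, 1.50 and 1.34 FPKM in control libraries. Chek1, its effector kinase, had 1.44, 1.52 and 1.52 FPKM in CKD libraries, against 0.988, 0.878 and 0.821 FPKM in control libraries. These 2 genes spread little within the CKD group, with SDs of 0.0689 and 0.0459 FPKM, and CKD replicate 1 lay close to the other CKD libraries. Their limma log2 differences were 0.38 ± 0.083 for Atr and 0.40 ± 0.080 for Chek1.

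Clspn, the adaptor through which ATR reaches CHK1, had 0.787, 1.41 and 1.70 FPKM in CKD libraries, against 0.129, 0.316 and 0.261 FPKM in control libraries, a ratio of means of 5.52. Its ratio to Chek1 within a library was 0.546, 0.928 and 1.12 in CKD libraries, against 0.130, 0.360 and 0.318 in control libraries. Clspn was thus also higher relative to the kinase it serves. Topbp1, the activator of ATR, had 2.87, 4.05 and 3.61 FPKM in CKD libraries, against 2.31, 2.52 and 2.39 FPKM in control libraries.

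Atm, the kinase of broken ends, had 2.25, 3.02 and 2.78 FPKM in CKD libraries, against 2.12, 2.22 and 1.96 FPKM in control libraries. Its lowest CKD value and highest control value differed by little, and the limma adjusted p was 0.246. Chek2, the effector of ATM, had 1.22, 2.43 and 1.68 FPKM in CKD libraries, against 1.04, 1.07 and 0.592 FPKM in control libraries, with the widest spread of the group in both conditions (SD of 0.614 FPKM in CKD and 0.266 FPKM in control). The ratio of Atr to Atm overlapped between the groups, from 0.756 to 0.965 in CKD libraries and from 0.674 to 0.776 in control libraries.

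End joining choice and Ku genes were near parity. Tp53bp1, which shields ends from resection, had 4.72, 5.10 and 5.42 FPKM in CKD libraries, against 5.10, 5.08 and 5.40 FPKM in control libraries. Xrcc6, the smaller Ku protein, had 11.3, 12.1 and 10.9 FPKM in CKD libraries, against 12.9, 10.2 and 11.4 FPKM in control libraries. Xrcc5, the larger Ku protein, had 12.9, 14.1 and 13.7 FPKM in CKD libraries, against 11.2, 12.4 and 12.0 FPKM in control libraries. The groups overlapped in the first pair of genes and not in Xrcc5, whose limma log2 difference was 0.18 ± 0.073 (adjusted p = 0.228). The 95% intervals of the limma log2 difference ran from -0.21 to 0.16 for Tp53bp1 and from -0.25 to 0.24 for Xrcc6. Msh6, which recognises base mismatches, had 5.40, 5.50 and 6.03 FPKM in CKD libraries, against 5.74, 4.50 and 4.42 FPKM in control libraries, and control replicate 1 lay among the CKD values.

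Genes of cycling cells were set beside the 33. A list of 29 proliferation genes summed to 168, 249 and 239 FPKM in CKD libraries, against 55.0, 91.3 and 76.6 FPKM in control libraries, and 14 of its 28 tested genes rose in the filtered limma fit, against the 1.33% of all tested genes given above. Among the 14, Ccne2, Bub1b and Foxm1 had no control library at 1 FPKM. They passed the filter through the CKD libraries alone, so the count of 14 depends in part on the filter. Without the filter 4 of the 29 were called, and in voom 0, with 27 of the 29 at an unadjusted p under 0.05 in each fit. Cdk1, the kinase of mitotic entry, had 16.6, 23.8 and 20.5 FPKM in CKD libraries, against 4.27, 8.45 and 6.51 FPKM in control libraries (log2 difference 1.55 ± 0.24, adjusted p = 0.0462). Mki67, a marker of cycling cells, had 4.64, 8.99 and 8.96 FPKM in CKD libraries, against 1.23, 2.35 and 2.01 FPKM in control libraries (log2 difference 1.55 ± 0.28, adjusted p = 0.0587). CKD replicate 1 was the lowest CKD library in both genes, as it was in 27 of the 33 recombination and damage response genes.

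Top2a, which untangles chromosomes before mitosis, had 8.20, 13.0 and 13.8 FPKM in CKD libraries, against 2.05, 3.85 and 2.81 FPKM in control libraries (log2 difference 1.70 ± 0.25, adjusted p = 0.0439). Mcm2, a subunit of the replicative helicase, had 6.95, 6.96 and 7.20 FPKM in CKD libraries, against 3.75, 4.37 and 4.57 FPKM in control libraries (log2 difference 0.62 ± 0.085, adjusted p = 0.0427). The calls of Cdk1, Top2a and Mcm2 were lost without the filter, with adjusted p-values of 0.0647, 0.0617 and 0.0588, and in voom at a mean count of at least 10, with 0.0695, 0.0691 and 0.0610. With the mean log2(FPKM + 1) of the proliferation list as a covariate, the median log2 difference of the 17 tested genes was 0.0084, against 0.24 without it, and 9 of the 17 differences were above 0. The median over all tested genes fell as well, to -0.050 with the covariate, against 0.053 without it. That covariate differs between the groups in the same direction as the genes, so the 2 cannot be told apart with 6 libraries. The part of the proliferation list in the differences was not tested.

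**Figure D4:**
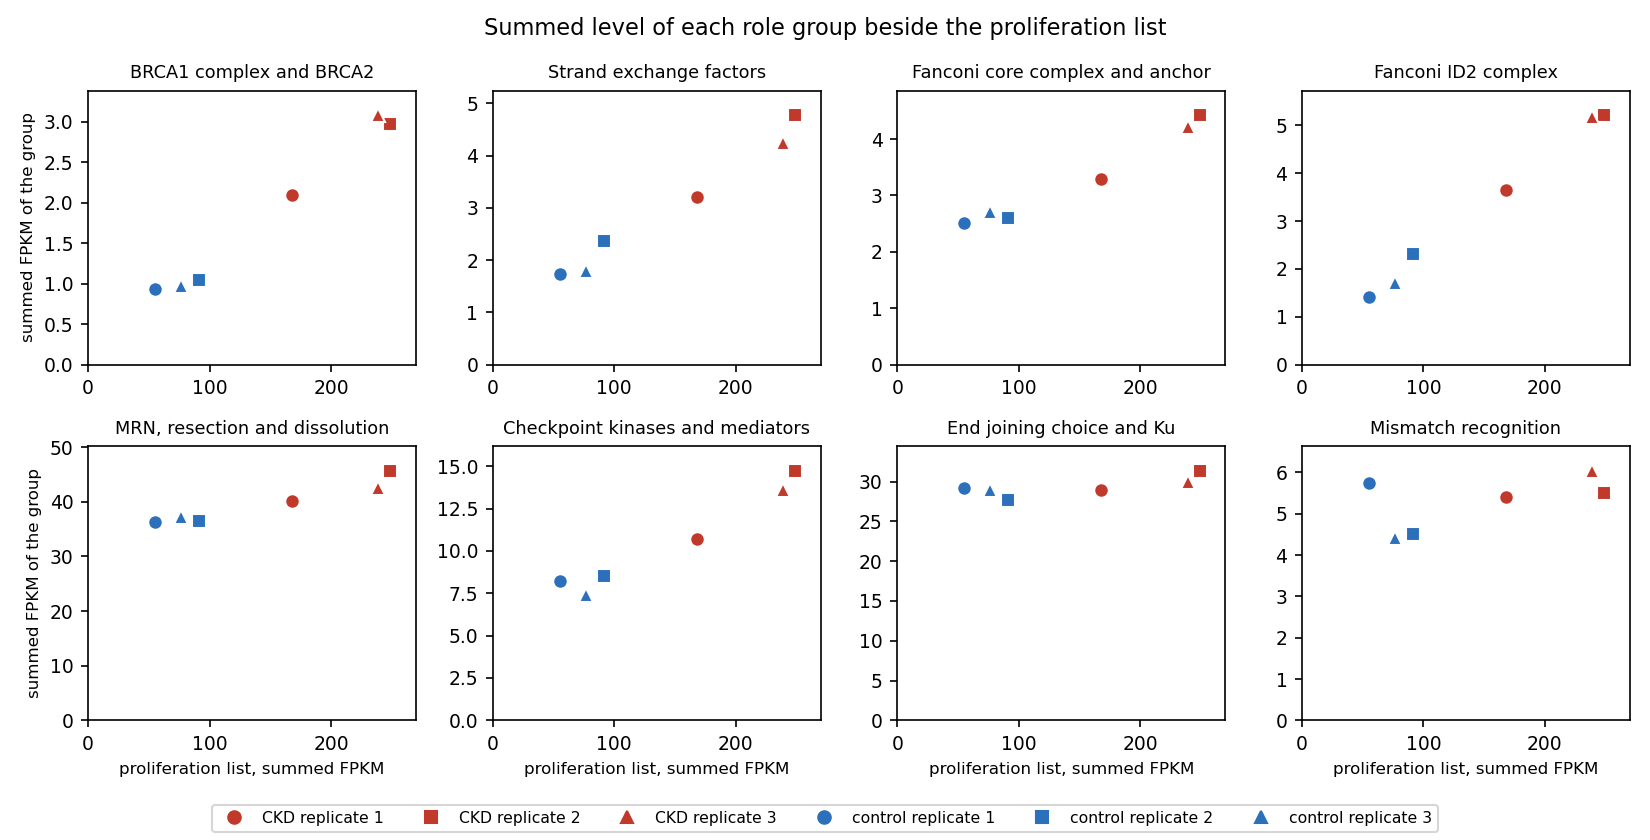
Summed FPKM of each of the 8 role groups (vertical) against the summed FPKM of the 29 proliferation genes (horizontal); each point is 1 of the 3 CKD or 3 control libraries. CKD replicate 1, at 168 FPKM on the horizontal axis, lies between the control libraries and CKD replicates 2 and 3 in the first 6 panels, while the sums of the end joining and Ku genes stay between 27.7 and 31.3 FPKM in all 6 libraries.

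The haematopoietic and macrophage markers ordered the first replicates differently from most of the 33 genes. Their sum was lower in CKD replicate 1 (314 FPKM) than in control replicate 1 (436 FPKM), whereas 27 of the 33 genes had the opposite order in these libraries. Within the CKD group their sum was lowest in replicate 1, as were the levels of 27 of the 33 genes. The sums of CKD replicates 2 and 3 (3560 and 2400 FPKM) lay above those of control replicates 2 and 3 (23.4 and 14.9 FPKM). Over these same libraries the median log2 ratio was 1.00 for the 33 genes and 0.11 for the table, as given above. Of the 20 markers 2 had all CKD libraries above all control libraries, against 16.9% of all genes in the table, and none was at 0 in all 6 libraries. With the mean of that list as a covariate, limma called 0 of the 17 tested genes, 14 of the 17 differences were above 0, and the lowest adjusted p was 0.369, for Fancd2. The median log2 difference was 0.17 for the 17 genes and 0.0063 over all tested genes, against 0.24 and 0.053 without the covariate. The part of these markers in the differences was not tested.

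Other genes of the same pathways were taken from 6 lists with 135 genes in the table. Of 109 tested, limma called 3 higher and 0 lower, with a median log2 difference of 0.087, against 0.053 over all tested genes. Among the other recombination and Fanconi genes, 1 of 30 rose. At an unadjusted p under 0.05 in limma, 8 of the 30 were higher and 1 lower, against 14.6% of all tested genes higher. Rad51c and Mnd1, among the 8, had no control library at 1 FPKM and passed the filter through the CKD libraries alone. All CKD libraries lay above all control libraries in 18 of the 42 genes of this list in the table, and below them in 1. The shares over all genes in the table were 16.9% and 8.59%. Ube2t, the ubiquitin-conjugating enzyme that works with FANCL on the ID2 complex, had 3.12, 4.14 and 3.71 FPKM in CKD libraries, against 0.388, 1.26 and 0.845 FPKM in control libraries (log2 difference 1.37 ± 0.20, adjusted p = 0.0439). Its substrate pair, Fancd2 and Fanci, also had groups that were apart.

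Among the other checkpoint genes, 2 of 18 rose. At an unadjusted p under 0.05 in limma, 8 of the 18 were higher and 0 lower, against 14.6% of all tested genes higher. Timeless, among the 8, had no control library at 1 FPKM and passed the filter through the CKD libraries alone. All CKD libraries lay above all control libraries in 10 of the 20 genes of this list in the table, against 16.9% of all genes. H2ax, the histone variant that ATM and ATR phosphorylate around breaks, had 11.1, 11.7 and 11.4 FPKM in CKD libraries, against 5.33, 5.53 and 5.78 FPKM in control libraries (log2 difference 0.93 ± 0.066, adjusted p = 0.0104). It was the only one of the 3 also called by voom, with an adjusted p of 0.0374, and without the filter, with 0.0184, where Ube2t had 0.0607 and Donson 0.0640. Its first replicates differed as much as the others, with log2 ratios of 1.06 and 1.03. Donson, a replication fork protein, had 1.39, 2.08 and 1.96 FPKM in CKD libraries, against 0.513, 0.679 and 0.680 FPKM in control libraries (log2 difference 0.78 ± 0.13, adjusted p = 0.0471). It had no control library at 1 FPKM and passed the filter through the CKD libraries alone. All 3 calls were lost when any single library among CKD replicates 2 and 3 and control replicates 2 and 3 was left out.

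No gene was called among the other end joining genes (0 of 10), the other mismatch repair genes (0 of 7), the nucleotide and base excision repair genes (0 of 25) or the p53 targets (0 of 19), in either direction by limma or by voom. At an unadjusted p under 0.05 in limma, the other end joining genes had 1 higher and 1 lower, the mismatch repair genes 4 higher, the excision repair genes 5 higher and the p53 targets 1 lower. Over all 10638 tested genes, 14.6% were higher and 799 genes were lower at that level. Ercc2, among the 5 excision repair genes, had no control library at 1 FPKM and passed the filter through the CKD libraries alone. In the table, all CKD libraries lay above all control libraries in 6 of 7 mismatch repair, 3 of 17 other end joining and 7 of 30 excision repair genes and 0 of 19 p53 targets. They lay below in 0 mismatch repair genes and in 1 gene of each other list here. The shares over all genes were 16.9% and 8.59%. The median log2 difference was 0.10 for the other end joining genes, 0.33 for mismatch repair, 0.031 for excision repair and -0.16 for the p53 targets, which p53 switches on after damage. Differences of the p53 targets were below 0 in 16 of 19 genes, against 4317 of the 10638 tested genes, and the groups overlapped in 18 of the 19. Their sums were 823, 573 and 595 FPKM in CKD libraries, against 993, 695 and 680 FPKM in control libraries. Their median levels were 28.5, 18.3 and 17.4 FPKM in CKD libraries, against 31.3, 15.9 and 14.5 FPKM in control libraries. The median was thus lower in CKD in the first replicates and higher in CKD in replicates 2 and 3.

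**Figure D5:**
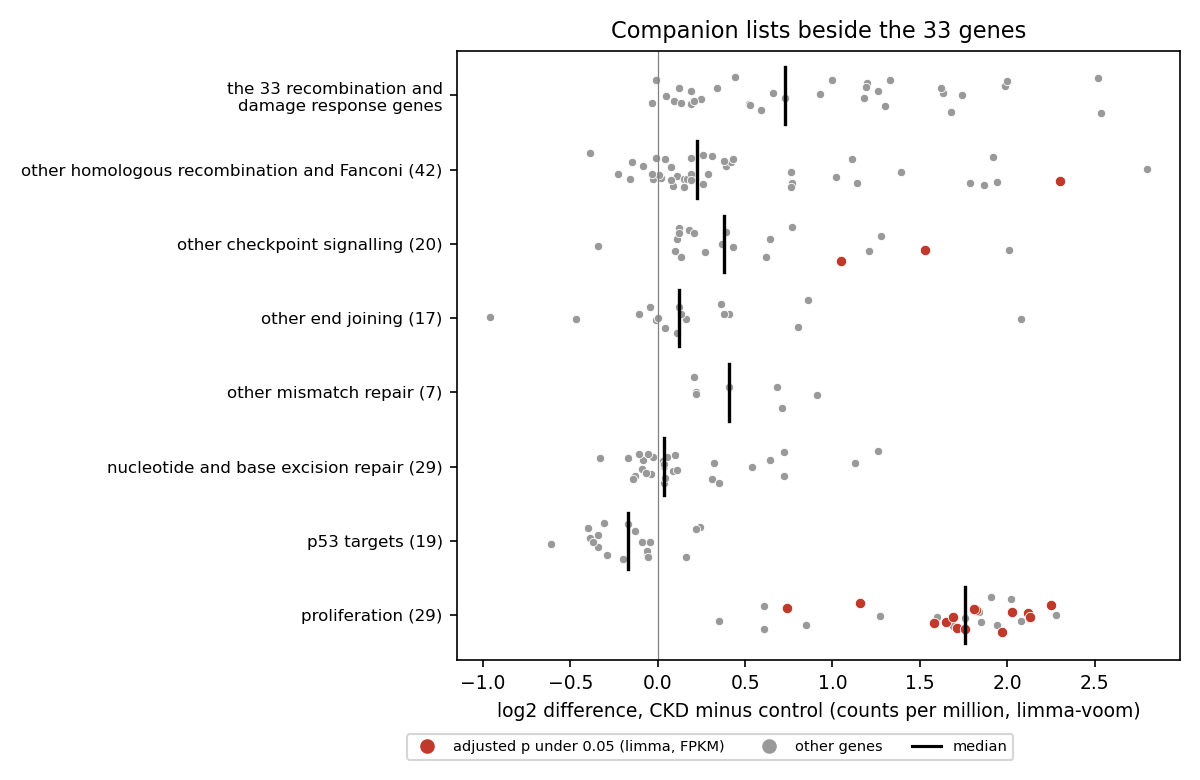
Log2 difference in CPM (counts scaled to library size), CKD minus control, from the limma-voom fit for the 33 genes and for the genes of 7 other lists (number plotted in brackets); each point is 1 gene, the bar is the median, and red marks an adjusted p under 0.05 in the limma fit on FPKM. The median of the 33 genes is 0.73, between that of the proliferation genes at 1.76 and those of excision repair at 0.038 and the p53 targets at -0.17.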

How the data were processed

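The 6 libraries were sequenced from poly-A selected RNA with a stranded kit, per the labels' protocols. The authors deposited 1 table, with decimal commas, that holds FPKM for every library. Its other columns are mean normalized counts of the groups and the authors' comparison, given as fold change, log2 of it, p-value and q-value, as the deposited headers name them. DESeq2 1.22.2, DESeq 1.34.1, HTSeq 0.11.2, HISAT2 2.1.0, SAMtools 1.9, FastQC 0.11.9 and the rat build mRatBN7.2 are named in the submitters' processing notes, without order or settings. Whether counting used the strand is not given in the sources used here, so reads of overlapping genes may be shared. No annotation of that build was used, so positions are not given.

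Groups came from titles and column codes, 3 libraries each. The main test was limma 3.58.1 (R 4.3.3) with a mean-variance trend on log2(FPKM + 1), two-sided, for the 10638 genes that reached 1 FPKM in 3 or more libraries, with Benjamini-Hochberg adjustment over all of them and a threshold of 0.05. Fragment counts were recovered from the FPKM and the group means of normalized counts: all 100140 values came out whole within 0.01, and limma-voom was run on them. Unfiltered fits combined with the other settings, and voom at a mean count of at least 10, were chosen after seeing the data. The script was tested on simulated data.

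The members and lists were chosen with earlier results of these data known, so counts over them are descriptions. Values in every library are given for every member. In the other lists, up to 4 called genes per list were named, with Mki67, Top2a, Cdk1, Mcm2, Ptprc, Itgb1 and Thy1 whatever their p. Ccne2, Bub1b, Foxm1, Eng, Nt5e, Rad51c, Mnd1, Timeless and Ercc2 were named after their values were seen. Ratios between members were chosen after their values were seen. A planned search of promoters for motifs and a planned permutation test of single values were not run. Some genes of these pathways are not reported here.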

Additional observations from a re-analysis of the deposited data

How the results depend on the processing

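Counts of members called higher among the 17 tested (0 in the main fit) were 2 of 33 without the filter, 1 under upper quartile scaling, 1 without the 2 libraries with conflicting tags, 11 without both first replicates and 1 with libraries of a shared name start averaged. Leaving out each library in turn gave 0 to 7, the highest without CKD replicate 1. No member was called lower under any setting. The median log2 difference of members, 0.24, was 0.38 without the filter, 0.36 without conflicting tags, 0.0084 with the proliferation covariate and 0.73 in voom at a mean count of at least 10. With the proliferation covariate the median over all tested genes was -0.050, against 0.053 in the main fit. The cause of these shifts was not tested.

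Without the filter, the count of 2 became 1 with a pseudocount of 0.1, 9 without conflicting tags and 24 without both first replicates, and 0 in voom, by the disease model tag, with shared name starts averaged and with either covariate. Leaving out each library gave 0 to 19. The median of 0.38 became 0.68 with a pseudocount of 0.1, 0.73 in voom, 0.16 by the tag, 0.23 with the haematopoietic covariate and -0.027 with the proliferation covariate. With the proliferation covariate the unfiltered median over all genes was -0.035, against 0.031 without it.

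All genes called higher (142) and lower (78) became 81 higher without the filter, 55 and 42 in voom, 15 and 15 in voom at a mean count of at least 10, 237 higher without conflicting tags, 3689 and 2162 without both first replicates, 0 and 0 by the tag, 6 and 11 with the haematopoietic covariate and 0 and 0 with the proliferation covariate. Leaving out each library gave 1 to 1139 higher and 5 to 546 lower. Companion genes called higher (3) were 1 with a pseudocount of 0.1, 1 in either voom fit, 5 without conflicting tags, 43 without both first replicates and 0 by the tag and with either covariate, and 0 to 19 over single libraries left out. Those called lower (0) were 1 without conflicting tags, 12 without both first replicates, 1 with name starts averaged and 0 to 3 over single libraries left out.

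With the replicate block, 60 genes were called higher and 28 lower, 2 companion genes were higher, and members were called in 0 cases with the filter and 0 without it. Deviations of same-numbered libraries from their group means correlated at 0.036, -0.0313 and 0.109. Log2 levels of CKD replicate 1 and control replicate 1 correlated at 0.967, as given above. Whether the first replicates share a source was not tested.

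With the proliferation covariate the log2 difference turned to -0.30 for Rad51ap1, -0.084 for Fanci, -0.19 for Nbn, -0.15 for Atm, -0.065 for Chek2, -0.16 for Topbp1, -0.12 for Xrcc5, 0.31 for Xrcc6, -0.29 for Mki67 and -0.34 for Ptprc. In the unfiltered fit with that covariate it turned to -0.066 for Brca1, -0.027 for Rad54b, -0.086 for Xrcc3, -0.10 for Fanca, -0.094 for Fancc, -0.20 for Fancg, -0.29 for Fancl, -0.036 for Blm and -0.085 for Clspn. With the haematopoietic covariate it turned to -0.016 for Mre11, 0.094 for Itgb1 and, without the filter, -0.020 for Fancc and -0.0065 for Fancl. Near-zero differences also changed sign when libraries were left out or regrouped. For Tp53bp1 they were 0.016 without CKD replicate 1, 0.0028 without conflicting tags, 0.0053 without both first replicates and 0.030 by the tag. For Xrcc6 they were 0.0025 and 0.026 without CKD replicates 1 and 3, 0.075 without control replicate 1 (range over single libraries left out -0.082 to 0.075), 0.082 without both first replicates and 0.011 with name starts averaged. For Fancc without the filter they were -0.024 without CKD replicate 2 and -0.0059 without control replicate 3 (range -0.024 to 0.037). No scaling changed the direction of a member.

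Depth limits the least abundant members, with as few as 6 fragments for Rad54b in a library. With 3 libraries a group and first replicates unlike the others, differences near the threshold cannot be placed firmly on either side.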
